A study of Homo sapiens with 4 samples.

Results

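The integrin beta subunits are the 8 genes ITGB1 to ITGB8, and they were followed here through 2 RNA-seq libraries of A549, an established line from a human lung adenocarcinoma. Members were found by gene symbol, and all 8 were listed among the 19732 symbols of the deposited table. The family was chosen by values of this same comparison, since ITGB3 was higher and ITGB1 lower after RBM4 knockdown, so its differences are given as a description and without a test. RBM4 binds RNA and is known for its roles in splicing and translation, and the study asks how it bears on cellular senescence. The series holds 4 samples: A549 and H1299, another lung cancer line, each as a control culture and as a culture with knockdown of RBM4. The knockdown samples are labelled sh, read here as short hairpin RNA. Their controls are labelled only as control, and whether these received a control hairpin is not given in the labels. The 2 H1299 samples were not analysed here. Each A549 group is 1 library made from total RNA of cells grown with fetal bovine serum, and whether the knockdown culture was a clone or a mixed population is not given in the sources used here. Values are FPKM, a count of sequenced fragments scaled to transcript length and to the size of the library, summed over the transcripts of a gene. The control and knockdown columns were told apart only by their names, as the labels do not repeat the number in the second name, so every direction below rests on that reading.

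Integrins are transmembrane receptors made of 1 alpha and 1 beta subunit that tie the extracellular matrix or other cells to the actin or keratin cytoskeleton. The beta subunit carries most of the cytoplasmic docking sites: talin binds a membrane-proximal NPxY motif (asparagine, proline, any residue, tyrosine) and kindlins bind a similar motif nearer the end, and both are needed for the receptor to take its active form. ITGB1 pairs with many alpha subunits, ITGB3, ITGB5, ITGB6 and ITGB8 pair with ITGAV, ITGB4 pairs with ITGA6 in hemidesmosomes, and ITGB2 and ITGB7 are leukocyte subunits.

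The cytoplasmic ends of ITGB1, ITGB3 and ITGB5, and of the variant ITGB1 tail, are shown because they are where the subunits differ in what they can dock. ITGB1 and ITGB5 held most of the family's RNA, and ITGB3 is one of the genes by which the family was chosen. Each line is the last 150 coding bases (50 codons) before the stop codon, read 5′ to 3′ from the hg38 reference transcripts of GENCODE release 29 and not from the A549 libraries. Capitals mark in-frame codons for NPxY or for the looser NxxY.
ITGB1-201: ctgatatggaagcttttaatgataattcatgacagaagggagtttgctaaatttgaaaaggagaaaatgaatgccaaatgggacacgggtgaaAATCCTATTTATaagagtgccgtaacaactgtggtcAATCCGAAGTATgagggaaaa
ITGB1-205: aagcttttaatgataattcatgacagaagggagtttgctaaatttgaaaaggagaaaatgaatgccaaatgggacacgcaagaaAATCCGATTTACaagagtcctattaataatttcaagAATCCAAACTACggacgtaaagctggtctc
ITGB3-201: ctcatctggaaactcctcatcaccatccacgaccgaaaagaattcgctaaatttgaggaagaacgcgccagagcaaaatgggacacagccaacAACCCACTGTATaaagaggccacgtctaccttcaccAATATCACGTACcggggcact
ITGB5-201: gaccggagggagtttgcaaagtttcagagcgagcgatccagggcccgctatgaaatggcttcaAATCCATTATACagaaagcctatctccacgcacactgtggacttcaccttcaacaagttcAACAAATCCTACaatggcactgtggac

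The ITGB1-201 end lies on the minus strand of chromosome 10 in 2 coding pieces, at 32908368 to 32908454 and 32901573 to 32901635. The ITGB3-201 end lies on the plus strand of chromosome 17, at 47307551 to 47307637 and 47310139 to 47310201. These ends share the same exon layout of 87 and 63 bases, and 88 of their 150 bases (58.7%) were identical at the same position. ITGB1-201 carries 2 NPxY motifs, whereas ITGB3-201 and ITGB5-201 carry 1 NPxY followed by 1 NxxY. ITGB1-205, which takes its last 72 coding bases from another exon (chromosome 10, 32907072 to 32907143), encodes the beta1D tail known from striated muscle and also holds 2 NPxY motifs. The ITGB5-201 end lies on the minus strand of chromosome 3, at 124764391 to 124764447 and 124763626 to 124763718. Searched the same way, ITGB6 holds NPxY and NxxY, ITGB7 holds NPxY and NPxF, ITGB2 holds 2 NPxF, and no such motif was found in the last 50 codons of ITGB8 or of ITGB4, whose long tail reaches far beyond this window. For comparison, 0.857% of 19480 protein-coding genes held 2 or more NxxY or NxxF motifs in a window of this length, and 0.411% held an NPxY.

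All transcripts summed to 671529 FPKM (control) and 622366 FPKM (knockdown), with 18.6% and 21.7% of the sum from the mitochondrial genome. Throughout, where a pair of values is given, the control comes before the knockdown library, and a number in brackets after a pair is the log2 difference. RBM4 had 59.4 FPKM in control cells against 30.6 FPKM after knockdown, for a log2 difference of -0.93. Each difference is the log2(FPKM + 1) after knockdown minus that of the control, so genes near 0 differ by more than it shows. Among the 12230 genes at 1 FPKM or more in either library the median difference was -0.04, and 4.96% were at least 2-fold higher and 2.25% at least 2-fold lower in the knockdown library. A549 cells showed their epithelial keratins, with KRT8 at 1646 and 888 FPKM, KRT18 at 1853 and 912 FPKM and KRT7 at 1880 and 2446 FPKM. The epithelial marker EPCAM was low, at 2.74 and 2.75 FPKM, and ESRP1 and ESRP2 were under 1 FPKM in both libraries. Of 10 alveolar type II and airway markers only ABCA3 passed 1 FPKM, and 5, among them SFTPB, SFTPA1 and NKX2-1, were listed at 0 in both libraries.

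ITGB1 was the most abundant beta subunit in both libraries and the one with the lowest difference. ITGB1 (ENSG00000150093, chromosome 10, 32900319 to 33005792, minus strand, hg38) had 762 FPKM in control cells against 391 FPKM after knockdown, for a log2 difference of -0.96 that was short of 2-fold, and -1.03 when the highest transcript stood for the gene. Its rank among all genes by level went from 127 to 184. Of the 819 genes at 100 FPKM or more in the control, 80 (9.77%) had a difference as low as that of ITGB1 or lower. This too is a description, as ITGB1 was chosen for its fall in this comparison.

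ITGB3, the beta chain of the vitronectin receptor and of the platelet fibrinogen receptor, stood at the other end. ITGB3 lies on the plus strand of chromosome 17, from 47253846 to 47311816 (ENSG00000259207). It had 0.93 FPKM in control cells against 46.4 FPKM after knockdown, for a log2 difference of 4.62. Only 1 of the 12230 genes had a higher difference. Of the 528 genes that were under 1 FPKM in the control and at 1 FPKM or more in the knockdown library, 12 reached 10 FPKM and 2, ITGB3 included, reached the level of ITGB3. The 528 genes passed the filter only through the knockdown library, and ITGB3 was chosen for its rise there. Its place among all genes is therefore a description, and nothing is read from it. In the annotation 51.6% of the exonic bases of ITGB3 also belong to AC068234.1, a read-through gene on the same strand for which no value is used here, so fragments of the shared exons could belong to either gene.

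**Figure D1:**
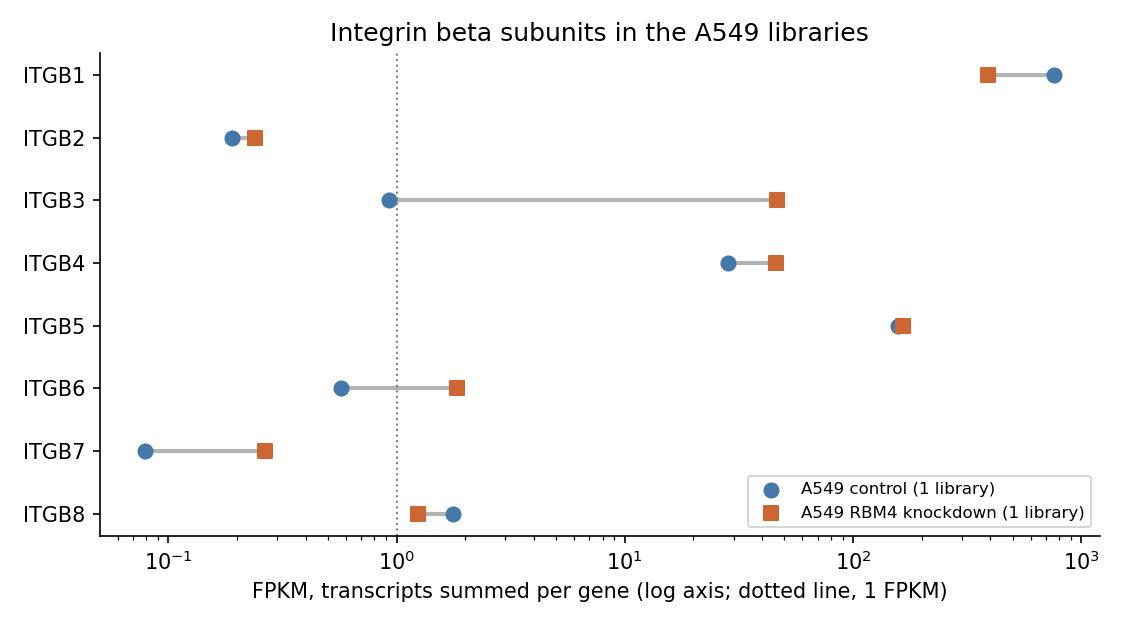
FPKM of each beta subunit gene in the A549 control (circles) and RBM4 knockdown library (squares) on a log axis, with 1 library per group and no error bars. ITGB1 moves from 762 to 391 FPKM, ITGB3 from 0.93 to 46.4 FPKM, and ITGB5 is level at 158 and 165 FPKM.

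None of ITGB5, ITGB6 and ITGB8, which also pair with ITGAV, had a difference as large as that of ITGB3. ITGB5, a vitronectin receptor chain (ENSG00000082781, chromosome 3, 124761948 to 124901418, minus strand), had 158 and 165 FPKM, a log2 difference of 0.06. ITGB6, an epithelial subunit that activates latent TGF-beta (ENSG00000115221, chromosome 2, 160099666 to 160200313, minus strand), had 0.57 and 1.83 FPKM, a difference of 0.85 that was short of 2-fold with a pseudocount of 1 and 1.53 with a pseudocount of 0.1. Of its exonic bases 20.6% overlap AC092153.1 on the same strand. ITGB8, which also takes part in TGF-beta activation (ENSG00000105855, chromosome 7, 20330702 to 20415754, plus strand), had 1.76 and 1.24 FPKM (-0.30). Among these 4 chains only ITGB3 passed 2-fold on the scale used here.

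ITGB4, the laminin-binding subunit of hemidesmosomes (ENSG00000132470, chromosome 17, 75721328 to 75757818, plus strand), had 28.4 FPKM in control cells against 45.8 FPKM after knockdown, for a log2 difference of 0.67. The leukocyte subunits were close to absent. ITGB2 (ENSG00000160255, chromosome 21, 44885953 to 44931989, minus strand) had 0.19 and 0.24 FPKM. ITGB7 (ENSG00000139626, chromosome 12, 53191318 to 53207307, minus strand) had 0.079 and 0.26 FPKM, and 42.1% of its exonic bases lie opposite exons of ZNF740. Those 2 genes were under 1 FPKM in both libraries and were not counted. Of the 6 members counted, 1 was at least 2-fold higher and none at least 2-fold lower, with 4 above 0 and 2 below. ITGB3 and ITGB6 passed 1 FPKM only in the knockdown library. Because the members were chosen from this contrast, nothing is read from that count against the 4.96% and 2.25% of all genes.

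**Figure D2:**
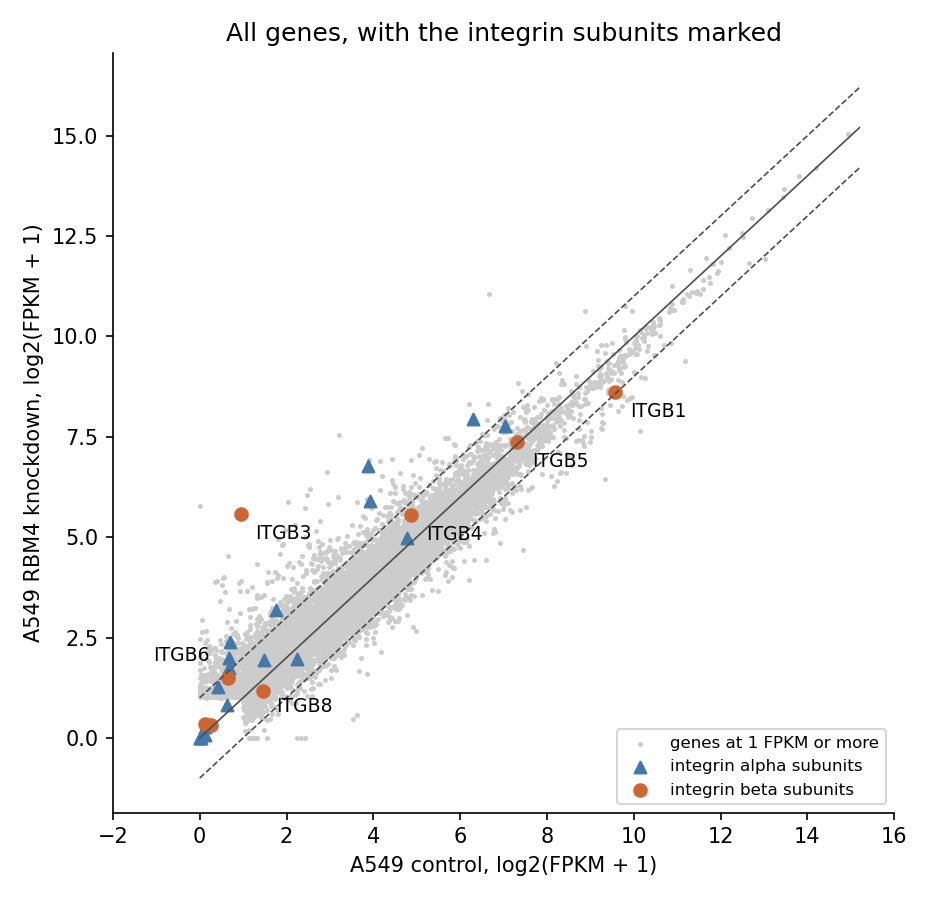
Each grey point is a gene at 1 FPKM or more in either library, placed by log2(FPKM + 1) in the control and the RBM4 knockdown library, with the line of equality and dashed lines at a 2-fold difference. ITGB3 lies far above the upper dashed line, ITGB1 just inside the lower one, and ITGB5 on the line of equality, while 7 alpha subunits (triangles) lie above the upper dashed line; the unlabelled circles near 0 are ITGB2 and ITGB7.

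By level, the order in the control library was ITGB1, ITGB5, ITGB4, ITGB8, ITGB3, ITGB6, ITGB2 and ITGB7. After knockdown ITGB3 and ITGB4 followed ITGB1 and ITGB5, at 46.4 and 45.8 FPKM, and ITGB6 and ITGB8 were at 1.83 and 1.24 FPKM. With 1 library per group no spread is known, so neighbours this close in the order cannot be told apart.

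The pool of beta subunit RNA was smaller in the knockdown library and less dominated by ITGB1. Summed over the 8 genes it was 952 FPKM in control cells against 652 FPKM after knockdown, or 0.685 times as much. ITGB1 made up 80.0% of the pool in control cells and 60.0% after knockdown. ITGB5 made up 16.6% and 25.3%, ITGB4 2.98% and 7.03%, and ITGB3 0.097% and 7.12%, so ITGB5 gained more of the pool than ITGB3 although its own level was nearly the same. Without ITGB1 the other 7 genes summed to 190.0 and 260.7 FPKM. There were 822 FPKM of ITGB1 per FPKM of ITGB3 in control cells and 8.42 after knockdown.

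**Figure D3:**
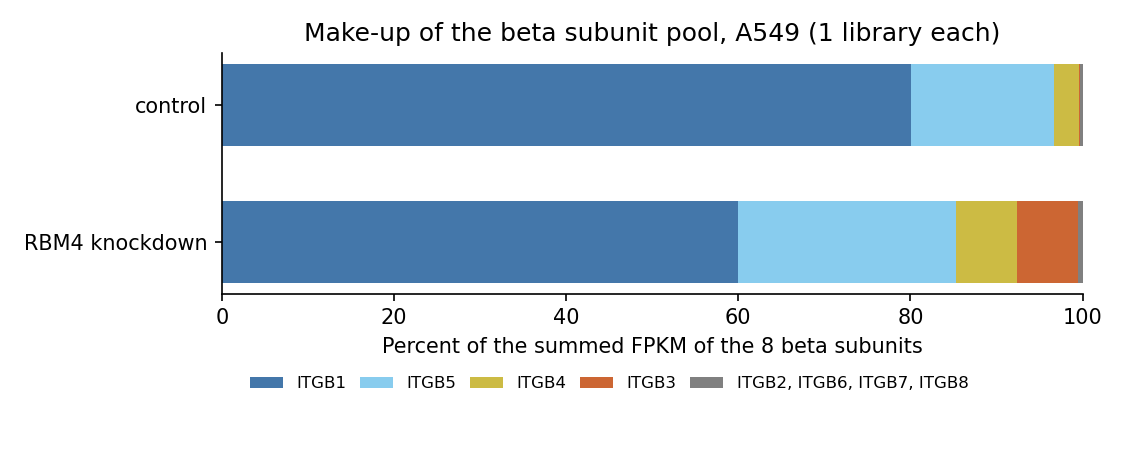
Bars give each subunit's percent of the summed FPKM of the 8 beta subunits in 1 control and 1 RBM4 knockdown library of A549. The ITGB1 segment shrinks from 80.0% to 60.0%, and the ITGB5, ITGB4 and ITGB3 segments are wider in the knockdown library, where ITGB3 is 7.12%.

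The lower level of ITGB1 ran through most of its listed transcripts. Of 15 transcripts, 10 were at 1 FPKM or more in either library, and 9 of these were lower and 1 was higher after knockdown, with ITGB1-209 nearly level at 1.02 FPKM in both. ITGB1-201 (ENST00000302278), the main full-length form, had 581 and 284 FPKM, 48.9% of the control. ITGB1-202 (ENST00000396033), which has the same coding length of 2394 bases, had 43.3 and 33.7 FPKM, 77.8% of the control. The share of ITGB1-201 within the gene was 76.2% in control cells and 72.6% after knockdown, so the make-up of the gene differed much less than its level. ITGB1-212, a partial model of 585 bases, had 11.4 FPKM in the control and was listed at 0 in the knockdown library. ITGB1-215, a partial model of 540 bases, was the 1 of those 10 transcripts that was higher, at 16.7 and 20.1 FPKM. The transcript with the beta1D tail, ITGB1-205, had 0.34 and 0.48 FPKM, at most 0.123% of the gene in either library.

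ITGB3 was carried by 1 transcript. ITGB3-201 (ENST00000559488), which encodes the full-length subunit and the tail shown above, had 0.93 and 45.3 FPKM and made up 97.7% of the gene in the knockdown library. The shorter ITGB3-202 (ENST00000571680) was listed at 0 in the control and had 1.08 FPKM in the knockdown library. ITGB4 transcripts were all in 1 direction: of the 6 at 1 FPKM or more in either library, 6 were higher in the knockdown library. ITGB4-206 had 11.8 and 19.4 FPKM and ITGB4-203 had 10.4 and 14.1 FPKM, both with 5256 coding bases. ITGB4-201, with the longest coding sequence at 5466 bases, had 0.74 and 3.59 FPKM and went from 2.59% to 7.83% of the gene.

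ITGB5 had nearly the same level in both libraries, while some of its transcripts did not. Its full-length transcript ITGB5-201 had 76.4 and 78.0 FPKM. The remaining 6 of its 7 transcripts are models that the annotation marks as incomplete, and they carried 51.6% of the gene's FPKM in the control. Among these, ITGB5-211 had 10.2 and 4.37 FPKM and ITGB5-208 had 9.78 and 21.0 FPKM, in opposite directions. Short overlapping models share most of their fragments with the long transcript, and how the fragments were divided among them is not known. ITGB6-201 was the only ITGB6 transcript above 0, and ITGB8-201 carried 80.9% and 84.8% of ITGB8. Over complete models alone, the log2 differences were -0.97 for ITGB1, 0.69 for ITGB4 and 0.03 for ITGB5.

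**Figure D4:**
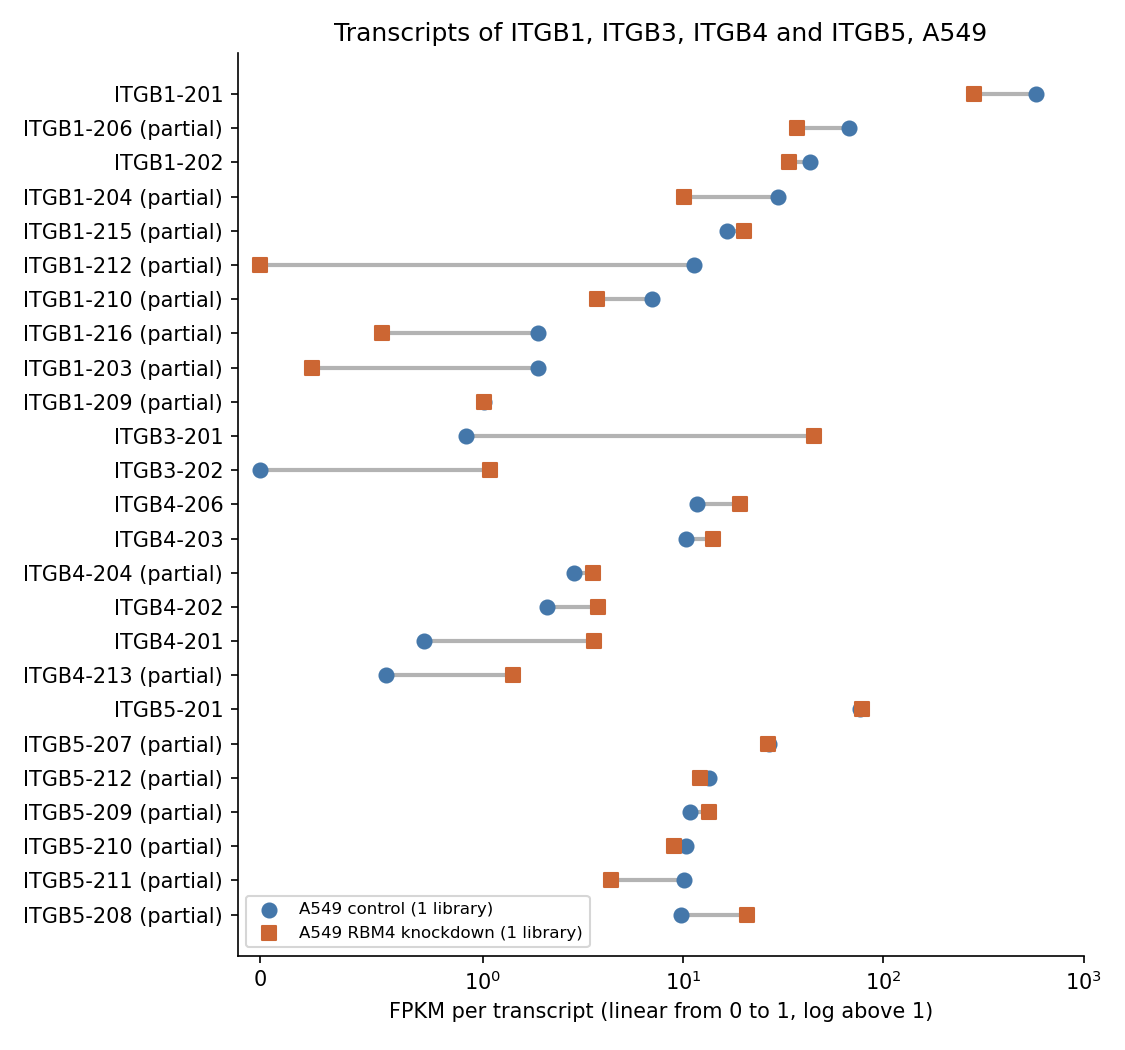
FPKM of each listed transcript of ITGB1, ITGB3, ITGB4 and ITGB5 that reach 1 FPKM in an A549 library, for the control (circles) and RBM4 knockdown library (squares), on an axis that is linear from 0 to 1 and logarithmic above. ITGB1-201 is at 581 and 284 FPKM, ITGB3-201 at 0.93 and 45.3 FPKM, and ITGB5-201 at 76.4 and 78.0 FPKM; partial marks models that are incomplete in the annotation.

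Several alpha subunits, with which every beta chain must pair, had higher levels in the knockdown library. Of the 18 genes, 12 were at 1 FPKM or more, 7 of these were at least 2-fold higher and none at least 2-fold lower, beside 4.96% and 2.25% of all genes. ITGA1, ITGA2B, ITGA7 and ITGAX were counted only because they passed 1 FPKM in the knockdown library, and 3 of them are among the 7. The median log2 difference of the 12 was 1.18, against -0.04 over all genes. ITGA5, which pairs with ITGB1 as the fibronectin receptor, had 13.6 and 109 FPKM (2.91). The collagen receptor chain ITGA2, also a partner of ITGB1, had 14.1 and 59.1 FPKM, or 420.2% of the control. ITGAV, the shared partner of ITGB1, ITGB3, ITGB5, ITGB6 and ITGB8, had 77.6 and 243 FPKM (1.64). The laminin receptor chain ITGA3 had 130 and 218 FPKM (0.74), and ITGA6, the partner of ITGB4, had 26.5 and 30.7 FPKM (0.21).

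The remaining alpha genes were low. ITGA11 had 2.37 and 8.05 FPKM (1.43), ITGA1 had 0.61 and 2.96 FPKM (1.30), and ITGA4 had 2.82 FPKM after knockdown (0.45). ITGA7, a muscle laminin receptor chain, had 0.35 and 1.40 FPKM (0.84). ITGA2B, the platelet partner of ITGB3, had 0.60 and 2.34 FPKM (1.06), beside 46.4 FPKM of ITGB3 after knockdown. ITGAX, a leukocyte partner of ITGB2, had 0.63 and 4.23 FPKM (1.68) with ITGB2 itself at 0.24 FPKM. ITGAE, the partner of ITGB7, had 3.74 and 2.92 FPKM (-0.27) and was the one counted alpha gene below 0. ITGA8 and ITGAD were listed at 0 in both libraries, and ITGA9, ITGA10, ITGAL and ITGAM stayed under 1 FPKM.

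Because ITGB1 was lower and the main alpha chains were higher, the balance of both sides of the receptor differed between the libraries. Summed alpha FPKM was 272 in control cells and 685 after knockdown. There were 3.50 FPKM of beta subunits per FPKM of alpha subunits in control cells and 0.951 after knockdown. ITGB1 alone was 2.80 times the alpha total in the control and 0.571 times in the knockdown library. These are RNA levels, and no protein was measured.

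**Figure D5:**
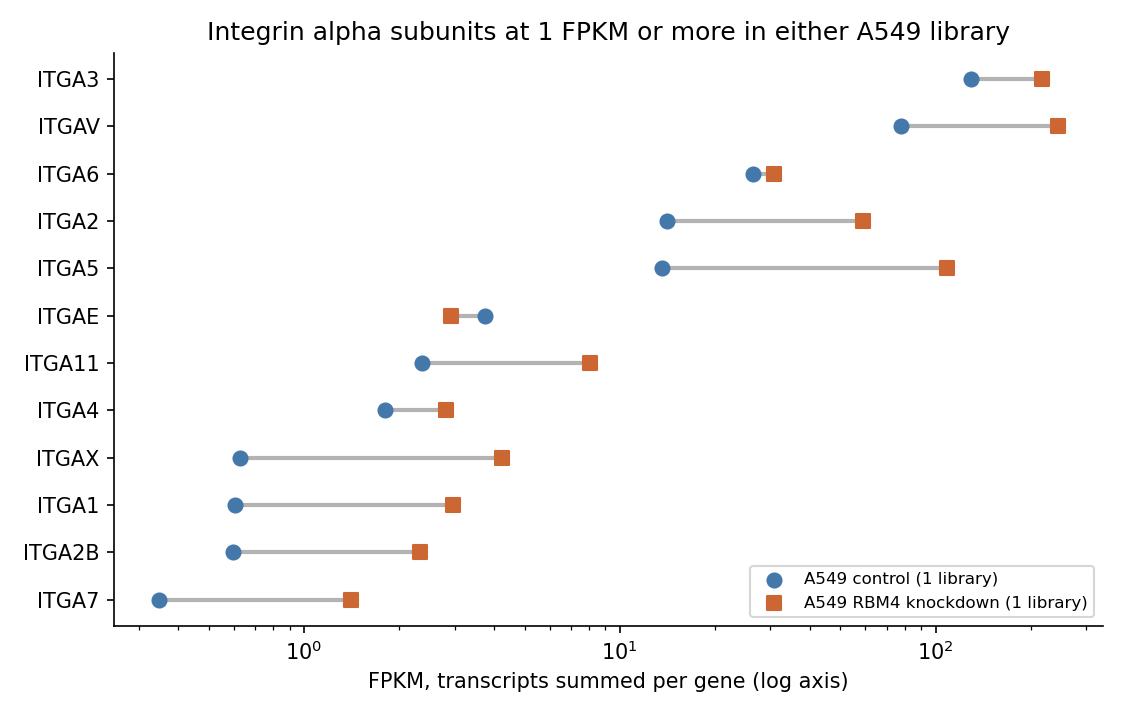
FPKM of the 12 alpha subunits that reach 1 FPKM in an A549 library, ordered by the control level on a log axis, with circles for the control and squares for the RBM4 knockdown library. All but ITGAE have the square to the right of the circle, and ITGA5 has the widest gap, from 13.6 to 109 FPKM.

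Matrix ligands of these receptors were often higher after knockdown. Of 32 ligands and latent TGF-beta carriers, 25 were at 1 FPKM or more, with 11 at least 2-fold higher and 2 at least 2-fold lower and a median log2 difference of 0.98, beside 4.96%, 2.25% and -0.04 over all genes. The basement-membrane proteins COL4A1, at 14.0 and 121 FPKM (3.03), and NID1, at 4.04 and 19.3 FPKM (2.01), were highest. Fibronectin, FN1, a ligand of ITGB1 and ITGB3 receptors, had 47.6 and 99.6 FPKM (1.05). Vitronectin, VTN, the namesake ligand of ITGB3 and ITGB5 receptors, had 5.04 and 6.34 FPKM (0.28), and osteopontin, SPP1, had 74.9 and 87.6 FPKM (0.22). Of the fibrinogen chains, ligands of ITGB3 receptors, FGB and FGA went the other way. FGB had 3.67 and 0.82 FPKM (-1.36) and FGA had 7.59 and 2.49 FPKM (-1.30), while FGG was nearly level at 1.90 and 1.73 FPKM (-0.09). FGB passed 1 FPKM only in the control. Of the TGF-beta genes, TGFB1, whose latent form ITGB6 and ITGB8 receptors act on, had 60.2 and 96.8 FPKM (0.68). TGFB2 had 29.3 and 33.1 FPKM (0.17), and TGFB3 was not counted, at 0.24 and 0.20 FPKM. Of the LTBP genes, whose products bind latent TGF-beta or the matrix, LTBP1 had 13.2 and 21.6 FPKM (0.67), while LTBP2 (1.43), LTBP3 (1.21) and LTBP4 (1.47) were each at least 2-fold higher.

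Hemidesmosome genes, the setting of ITGB4, had a median of 0.31 over 8 counted members of 11, of which 1 was 2-fold higher and none 2-fold lower, beside 4.96% and 2.25% of all genes. The laminin chain LAMA3, a part of the matrix ligand of ITGB4 receptors, had 18.2 and 18.8 FPKM (0.05). Plectin, PLEC, which links ITGB4 to keratin, had 180 and 163 FPKM (-0.15). The tetraspanin CD151, which associates with laminin-binding integrins, had 180.5 and 239.6 FPKM (0.41). KRT5 and KRT14 were listed at 0 in both libraries.

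Among proteins that dock on or signal from the beta tails, 27 of 28 were at 1 FPKM or more, 3 were at least 2-fold higher, none was 2-fold lower (4.96% and 2.25% of all genes), and the median was 0.45. Talin 1, TLN1, which binds the proximal NPxY, had 49.3 and 73.3 FPKM (0.56). The kindlin FERMT2 had 25.9 and 49.0 FPKM (0.90), whereas the epithelial kindlin FERMT1 had 6.65 and 6.29 FPKM (-0.07). The tail-binding tensins split: TNS1 had 3.11 and 58.0 FPKM (3.84) and TNS3 had 137 and 73.5 FPKM (-0.89). LIMS2, of the ILK complex, had 2.85 and 10.0 FPKM (1.52), and GIT1, an adaptor for paxillin signalling, had 32.1 and 22.7 FPKM (-0.49).

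Genes listed as holding integrins inactive, or as acting on such genes as KRIT1 does, had a median of 0.12 over 9 counted members of 11. Of these 9, 1 was at least 2-fold higher and none 2-fold lower, beside 4.96% and 2.25% of all genes. That gene was the filamin FLNC, at 0.90 and 11.6 FPKM (2.74), counted through the knockdown library. ITGB1BP1, which competes for the distal NPxY of ITGB1, had 41.2 and 38.2 FPKM (-0.11), KRIT1 had 20.6 and 16.4 FPKM (-0.32), and SPRY2 had 7.39 and 5.98 FPKM (-0.26).

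Of the genes of integrin traffic, none of the 17 counted members of 20 reached 2-fold in either direction on the log2(FPKM + 1) scale. That is near the 4.96% and 2.25% of all genes, and the median was 0.08. The recycling factor EHD1 had 25.6 and 51.3 FPKM (0.97) and SH3BP1 had 1.76 and 2.99 FPKM (0.53). HAX1, a binding partner of the ITGB6 tail, had 58.3 and 37.0 FPKM (-0.64), and SNX17, a sorting nexin that binds beta tails and returns integrins from endosomes to the surface, had 71.9 and 56.3 FPKM (-0.35). Of 12 counted genes for folding and glycosylation, 1 was 2-fold higher and 1 was 2-fold lower, beside 4.96% and 2.25% of all genes, with a median of 0.09. All but MGAT5, a Golgi enzyme, act in the endoplasmic reticulum, where the subunits are paired. The chaperone HSPA5 had 137 and 296 FPKM (1.11) and the oxidase ERO1A had 35.9 and 49.6 FPKM (0.46), while MGAT5, a branching enzyme for N-glycans that are carried by integrins, had 9.39 and 3.94 FPKM (-1.07) and UGGT1 had 34.4 and 27.6 FPKM (-0.31).

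Counter-receptors of leukocyte integrins on other cells numbered 10, of which 5 were counted, 2 were 2-fold higher and none 2-fold lower (4.96% and 2.25% of all genes), with a median of 0.23. ICAM1, the main ligand of ITGB2 receptors, had 1.49 and 6.73 FPKM (1.64), and the junction protein F11R had 10.8 and 24.9 FPKM (1.13). ICAM3 had 2.28 and 1.60 FPKM (-0.33), and CDH1, the ligand of the ITGAE and ITGB7 pair, had 7.70 and 6.54 FPKM (-0.21).

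Markers of other cells that carry ITGB3, ITGB2 or ITGB7 were partly at 0 and partly higher after knockdown. The 8 platelet and megakaryocyte markers summed to 2.32 and 5.07 FPKM, with 3 counted, all only through the knockdown library, and 1 of these, ITGA2B, 2-fold higher, and GP9 and GP1BA were listed at 0 in both libraries. PF4 had 0.58 and 1.65 FPKM and GP1BB had 0.87 and 1.06 FPKM. The 14 leukocyte markers summed to 10.3 and 35.2 FPKM, with 3 counted and 2 of these, CD68 and ITGAX, 2-fold higher. Most of that sum was CD68, at 6.90 and 25.8 FPKM, while 8 leukocyte markers, among them CD3E and SPI1, were listed at 0 in both libraries and CD14 had 2.16 and 4.32 FPKM.

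Of 9 endothelial markers 1 was counted, ESAM at 3.04 and 18.5 FPKM, and the list summed to 3.04 and 18.9 FPKM with VWF, KDR, CLDN5 and EMCN at 0 in both libraries. Of 10 fibroblast markers 2 were counted and both were 2-fold higher, THY1 at 5.73 and 26.0 FPKM and COL1A1 at 2.61 and 9.47 FPKM. That list summed to 8.88 and 36.6 FPKM, with DCN at 0 in both libraries and COL3A1 at no more than 0.04 FPKM. Of 10 epithelial markers 8 were counted, CLDN4 and CLDN7 only through the knockdown library. Of the 8, 2 were 2-fold higher, KRT19 and CLDN4, and 1 was 2-fold lower, KRT18 (-1.02). KRT8 had -0.89. The median was 0.19, or 0.007 without CLDN4, and the list summed to 5420 and 4344 FPKM. All these marker counts stand beside 4.96% of all genes higher and 2.25% lower. KRT19 had 29.6 and 64.9 FPKM and CLDN4 had 0.57 and 22.3 FPKM. The part of these markers in the levels of the beta subunits was not tested. In RNA from a whole culture, more cells with a gene and more RNA per cell cannot be told apart.

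The genes nearest to ITGB1 in the plane of both libraries, by Euclidean distance in log2(FPKM + 1) over these 2 libraries, were HIST1H1E at 775 and 394 FPKM, ALDH3A1 at 742 and 396 FPKM and HNRNPA2B1 at 674 and 386 FPKM. Their distances ran from 0.027 to 0.18. Nothing lay as near to ITGB3. Its closest genes were LUZP6, which shares exons with MTPN and was listed at 0 in control cells and reached 53.8 FPKM after knockdown, ATP2A3 at 2.47 and 30.0 FPKM, and CLDN4, at distances from 0.97 to 1.07.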

How the data were processed

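CASAVA 1.8.2, TopHat, Cufflinks and build hg38 are listed in the submitters' processing notes. The order of steps, annotation, strand use and filters are not given in the sources used here. Expression was deposited by the authors as FPKM per transcript. Read totals are not in these values, so depth is unknown and no counting interval is given. Columns were matched to samples by name: the bare line name was read as the control and the name with an added number as the knockdown. The H1299 table has 3 value columns whose names match no single sample, and they were not used, so planned H1299 results were not computed. Transcripts were summed per symbol (python 3.11.15, pandas 2.3.3, numpy 2.4.6), genes at 1 FPKM or more in either library were kept, and differences used a pseudocount of 1 FPKM and a 2-fold cut. With 1 library per group no test was run, and no difference has a replicate check. Coordinates, transcript models and sequences are those of GENCODE 29 (hg38), which held 99.5% of the transcripts. Genes named were the 8 members and their transcripts, all alpha subunits, RBM4, the 2 highest and 2 lowest counted genes of each other list, a fixed set of ligands, talin, kindlins and regulators, and the 3 genes nearest in level to ITGB1 and to ITGB3; other genes named were chosen after their values were seen. A few genes that this rule would name are not reported here. The members and the 15 lists were chosen with earlier results of these data known. Alternatives varied the pseudocount, the filter, the scaling, the centring and the transcripts used.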

Additional observations from a re-analysis of the deposited data

How the results depend on the processing

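ITGB3 was at least 2-fold higher under all 10 alternatives (log2 difference 4.59 to 5.50), but not all of these could move it. With no filter, the 5 FPKM minimum, transcripts under 0.1 FPKM left out or complete models only, its value could not change from 4.62. A filter on gene level changes no member's difference. ITGB1 stayed below 0 (-1.03 to -0.80), and it passed 2-fold only when the highest transcript stood for each gene, which gave 1 beta member 2-fold lower. ITGB4 (0.67 to 0.84), ITGB5 (0.03 to 0.22) and, where counted, ITGB8 (-0.47 to -0.24) kept their direction and stayed short of 2-fold. ITGB6 reached 2-fold, making 2 beta members higher, with a pseudocount of 0.1 (1.53) or 0.5 (1.12), after scaling both libraries to 1 total (1.09) and with mitochondrial transcripts left out and the rest rescaled (1.22). A minimum of 5 FPKM left 4 alpha genes 2-fold higher. Of all genes, a pseudocount of 0.1 gave 985 higher and 418 lower, against 607 and 275. Rescaling gave 925 higher and 243 lower (79.2% higher, against 68.8%), leaving out mitochondrial transcripts gave 1131 and 232 (83.0% higher), and these moved the median of all genes from -0.04 to 0.07 and 0.13. The highest transcript gave 415 lower. The beta total in the knockdown library over the control was 0.739 after rescaling, 0.767 without mitochondrial transcripts, 0.683 with the 5 FPKM minimum, 0.640 with the highest transcript and 0.668 with complete models, an alternative chosen after seeing the data. In the last 3, ITGB1 held 80.3%, 86.4% and 85.6% of the pool in the control and 60.3%, 66.0% and 65.3% in the knockdown library, and beta over alpha was 3.60, 2.93 and 2.80 in the control and 0.971, 0.719 and 0.740 in the knockdown library. The cause of these shifts was not tested. No paired analysis was possible because each group had 1 library.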

Other observations

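Genes beside ITGB1 and ITGB3 on their chromosomes, the 2 nearest listed protein-coding genes on each side, did not show differences of the size of those of ITGB1 and ITGB3. This selection was made after the files were seen. Around ITGB3, CDC27 had 60.9 and 60.3 FPKM (log2 difference -0.01), NPEPPS had 77.4 and 66.7 FPKM (-0.21), MYL4 was listed at 0 in both libraries, and EFCAB13, which starts 11 kb beyond ITGB3, had 2.35 and 4.38 FPKM (0.69). Around ITGB1, NRP1, a co-receptor for semaphorins and vascular growth factors, had 173 and 180 FPKM (0.06), CCDC7 had 3.56 and 3.76 FPKM (0.06), EPC1 had 8.46 and 7.52 FPKM (-0.15), and the polarity gene PARD3 had 59.9 and 43.2 FPKM (-0.46).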
